A study of Arabidopsis thaliana with 9 samples.

Results

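Stamens were compared with leaf in Arabidopsis thaliana by RNA sequencing. The comparison takes 6 of the 9 libraries of the series, the 3 labelled male, which hold stamens, and the 3 labelled leaf, and they were chosen by these labels alone. The other 3 libraries, from gynoecium, enter the estimate of spread and no contrast. Both organs come from Col-0, the standard laboratory accession, with no treatment, mutation or transgene named, and the labels give flower bud differentiation as the stage and immature floral buds beside leaf as the material. Plant age, the time of day of collection and the number of plants behind a library are not stated there, so the spread between libraries of an organ may be technical. The libraries were made from total RNA of whole organs, so that fewer cells of a type and less RNA per cell cannot be told apart in any value below.

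A stamen is a filament that carries an anther. Inside the anther, meiocytes divide to give microspores, and the tapetum, the innermost wall layer, feeds them, builds their outer wall and finally breaks down to leave an oily coat on the pollen. Each pollen grain encloses sperm cells in a larger cell that grows the pollen tube. Leaf tissue is mostly mesophyll, the cells that carry out photosynthesis, with stomata, hairs and veins, and it keeps stores of glucosinolates and an immune system that is active before any attack.

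Levels are given as CPM, the count relative to the library size after TMM scaling, and where 3 values follow each other they are replicates 1, 2 and 3 of the organ. A change is a log2 ratio of stamens to leaf, with its standard error, and a gene was called higher or lower in stamens where the adjusted p of edgeR's quasi-likelihood test was under 0.05. Library totals ran from 16916596 to 17887733 counts in stamens and from 16042169 to 17205304 in leaf. A gene at 0 in every library of an organ is compared at 3 counts per library, 0.174 to 0.229 CPM, and its fold is a lower bound that covers counting error only. With 1 to 3 counts in an organ the ratio is given with its exact 95% interval. Spearman's correlation over the genes tested was 0.9961 to 0.9967 between stamen libraries, 0.9972 to 0.9975 between leaf libraries and 0.6282 to 0.6352 between the organs.

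The labels were checked against genes that mark each organ. PI (AT5G20240), AP3 (AT3G54340) and AG (AT4G18960), the homeotic genes that together specify stamens, stood between 203 to 210 CPM for AG and 742 to 796 CPM for PI in the stamen libraries and had no count in leaf. LHCB1.3 (AT1G29930), a chlorophyll-binding protein of the light-harvesting antenna, stood at 2461 to 2497 CPM in stamens and 48149 to 51000.2 in leaf. RBCS1A (AT1G67090), a small subunit of Rubisco, stood at 98.7 to 135 CPM in stamens and 2697 to 3795 in leaf. SUC2 (AT1G22710), the sucrose carrier of phloem companion cells, stood at 41 to 47.2 CPM in stamens and 428 to 436 in leaf. In none of these genes did a library of one organ reach the levels of the other, which also held for 87.2% of all genes tested. Not all leaf markers followed: GL1 (AT3G27920), a regulator of leaf hairs, had no count in either organ, and KAT1 (AT5G46240), a potassium channel of guard cells, was higher in stamens, with 52.7, 52.7 and 57.2 CPM in stamens and 21.9, 22.7 and 23.4 in leaf.

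Most genes differed between the organs. Of 20827 genes tested, 18305 were called (87.9%), 10419 higher in stamens (50.0%) and 7886 lower (37.9%), and 2522 were not called. The libraries of the 2 organs did not overlap for 87.2% of the genes, with stamens above leaf for 49.7% and below for 37.5%. A call alone therefore says little about a gene or a list, and size matters more. With genes at 0 taken at their bound, 2319 genes were higher in stamens by at least 16-fold (11.1%) and 875 lower (4.20%), and at 64-fold the counts were 1060 (5.09%) and 251 (1.21%). The median log2 change of all genes tested was 0.23, and 0.21 with genes at their bound. Scaling libraries by their totals instead of TMM raised this median by 0.23, so small changes are relative to the scaling used.

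The stamen libraries held a larger set of genes that leaf lacked than the reverse. Among the genes tested, 3181 (15.3%) had no count in the 3 leaf libraries and 564 (2.71%) had none in the 3 stamen libraries. Both numbers include genes at 0 in stamens and leaf alike, such as SHP2 (AT2G42830), which passed the filter through gynoecium. Of the 3181, 2951 were called higher in stamens, and of the 564, 361 were called lower. With 20 CPM or more in the organ that had counts, 644 genes had no leaf count and 60 no stamen count. Counting untested genes as well, those with no count in the other organ took 14.2% to 14.3% of all counts in the stamen libraries and 0.665% to 0.676% of those in leaf. Leaf counts lay in fewer genes, with 683 to 698 genes making up 50% of a library against 1238 to 1261 in stamens. Chloroplast genes took 0.901% to 0.911% of stamen counts and 5.86% to 5.94% of leaf counts, and the nuclear photosynthesis lists 0.976% to 1.02% and 14.3% to 14.8%.

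**Figure D1:**
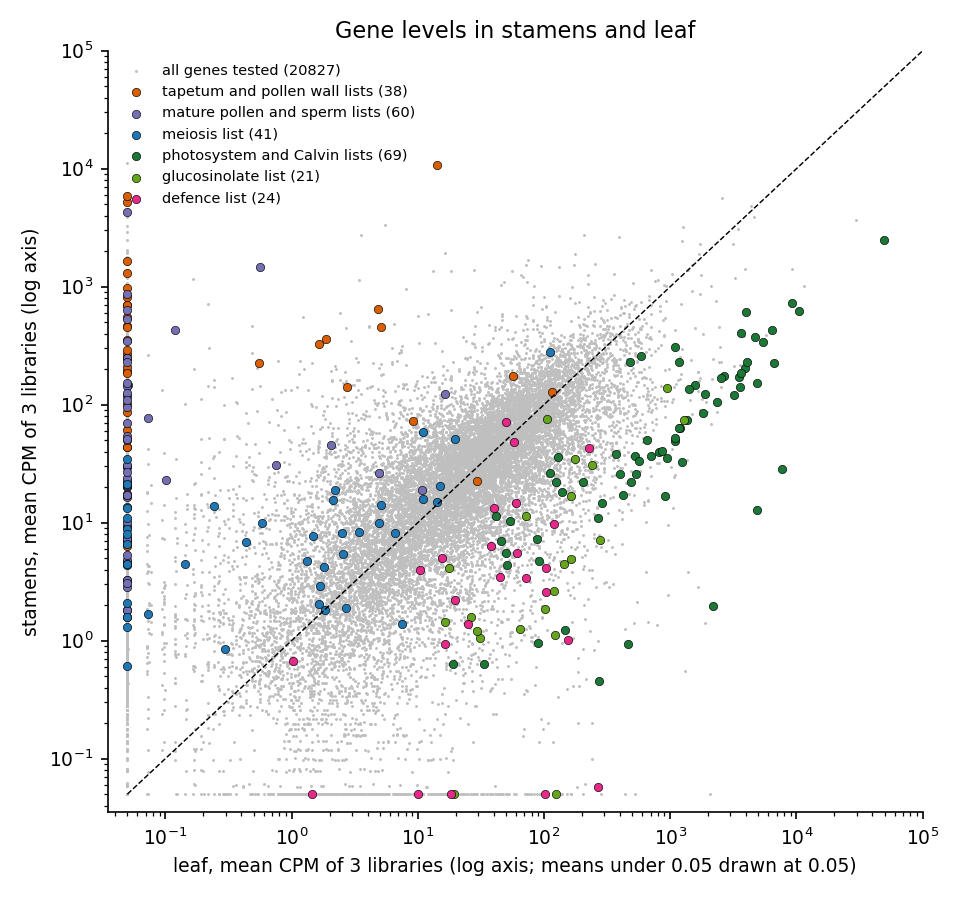
Mean level of every gene tested in leaf (horizontal, CPM, log axis) and stamens (vertical, CPM, log axis), each over 3 libraries, with members of 6 groups of lists in colour and means under 0.05 CPM drawn at 0.05. Tapetum, pollen wall and pollen genes stand along the left edge, where leaf had no count, while photosystem and Calvin cycle genes lie below the diagonal of equal levels.

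By FPKM, the authors' level per length and library total, the highest gene in stamens was ATA20 (AT3G15400), a tapetum gene, with 6528 ± 52.1 (SD, n = 3) against 7.32 ± 0.86 in leaf. The next was AT3G28830, annotated as a putative mucin-like protein with the domain DUF1216, whose libraries held 10904, 11494 and 11250.1 CPM in stamens and no count in leaf, so that it was at least 51245-fold higher. Its FPKM in stamens was 5108 ± 108. Among the 8 highest genes of stamens, 4 more had no leaf count. These were XTH3 (AT3G25050), of the family that remodels xyloglucan in cell walls, with 2891 ± 18.2 FPKM, GRP17 (AT5G07530), an oleosin-domain protein of the pollen coat, with 2882 ± 90, ATA27 (AT1G75940), a glycosyl hydrolase of the tapetum, with 2609.9 ± 26.4, and AT3G28790, also of DUF1216, with 2589 ± 11.2. The remaining pair was present in leaf as well. RD19 (AT4G39090), a cysteine protease, stood at 2783 ± 37.7 FPKM in stamens and 2117 ± 6.67 in leaf, and AT3G15450 at 2527 ± 91.3 and 162 ± 5.7.

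In leaf, LHCB1.3 led with 32680.0 ± 1029 FPKM against 1930.0 ± 17.1 in stamens. Behind it came chloroplast-encoded genes and nuclear genes of the photosystems, among them PSBP-1 (AT1G06680) and PSBO1 (AT5G66570), subunits of the water-splitting complex of photosystem II, with 6279.6 ± 172 and 4970.2 ± 58.3 FPKM against 441 ± 12.9 and 463 ± 4.48 in stamens. THI1 (AT5G54770), which makes the thiazole part of thiamine, was the one gene among the 8 highest of leaf that belongs to neither group, with 4674 ± 18.7 FPKM in leaf and 845 ± 3.53 in stamens. All 8 were also found in stamens. LHCB1.3 belongs to a group of near-identical genes, so its counts may be shared with the other LHCB1 copies.

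The sequences just before the start of a gene hold much of its promoter, and the 250 bases before the annotated start of the genes that lead each organ are printed below. They are the highest in FPKM among nuclear genes called at 16-fold or more whose window holds no annotated exon, taken from the RefSeq sequence of TAIR10.1, on the strand of the gene. AT3G28830 lies at chr3:10830912-10831161 on the plus strand and LHCB1.3 at chr1:10477635-10477884 on the plus strand. Capitals mark a TATA box, TATAAA on either strand, whose first base lies 26 bases before the start of AT3G28830. The same letters occur in 46.0% of the 20680 windows of nuclear genes tested. None of the 8 motifs searched was in the window of LHCB1.3.
AT3G28830: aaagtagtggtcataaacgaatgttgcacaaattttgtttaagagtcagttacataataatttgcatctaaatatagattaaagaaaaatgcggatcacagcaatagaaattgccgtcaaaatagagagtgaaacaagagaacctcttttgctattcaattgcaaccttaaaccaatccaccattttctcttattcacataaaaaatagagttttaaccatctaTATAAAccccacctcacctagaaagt
LHCB1.3: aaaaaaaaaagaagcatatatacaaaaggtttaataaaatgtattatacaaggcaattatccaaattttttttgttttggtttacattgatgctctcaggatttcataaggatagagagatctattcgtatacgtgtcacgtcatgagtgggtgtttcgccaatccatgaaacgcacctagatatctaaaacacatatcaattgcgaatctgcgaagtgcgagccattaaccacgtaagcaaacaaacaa

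Floral identity genes separated the organs, though not all of them. Of 15 homeotic and meristem genes tested, 10 were called above leaf, 2 below it and 3 neither way, where 50.0% and 37.9% of all genes were above and below, at a median log2 change of 1.81 at the bound. PI held 787, 742 and 796 CPM in stamens and no count in leaf, at least 3540.4-fold apart. AP3 held 343, 343 and 344 CPM in stamens and no count in leaf, at least 1568-fold, and AG held 210, 204 and 203 CPM in stamens and no count in leaf, at least 939-fold. All stamen libraries were high and all leaf libraries empty for this trio. SEP3 (AT1G24260), a cofactor of these MADS proteins, stood at 118, 103 and 105 CPM in stamens and 4.13, 4.77 and 4.49 in leaf, a log2 change of 4.60 ± 0.084 (SE; adjusted p = 9.63e-49). SEP2 (AT3G02310), of the same kind, stood at 109 to 112 CPM in stamens and no count in leaf. For these cofactors, too, every stamen library lay above every leaf library, as for 49.7% of all genes tested.

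A pair of MADS genes ran the other way. SEP4 (AT2G03710) stood at 2.2, 2.65 and 3.14 CPM in stamens and 84, 77.8 and 80.5 in leaf, a log2 change of -4.92 ± 0.095 (SE; adjusted p = 1.97e-49). FUL (AT5G60910), which acts in the inflorescence, the fruit and leaf veins, stood at 5.91, 3.65 and 3.64 CPM in stamens and 94.1, 100 and 101 in leaf, a log2 change of -4.47 ± 0.084 (SE; adjusted p = 1.65e-45). For both, leaf libraries were high and stamen libraries low, with no overlap. SUP (AT3G23130), which sets the border between stamens and carpels, held 1.91 to 2.9 CPM in stamens and no count in leaf, and AP1 (AT1G69120), a gene of sepals and petals, held 0.869 to 0.943 CPM in stamens and no count in leaf. AP2 (AT4G36920), a homeotic gene transcribed widely, stood at 21.7, 22.6 and 21.9 CPM in stamens and 21.7, 21.6 and 22.7 in leaf and was not called, its libraries overlapping. LFY (AT5G61850), CAL (AT1G26310) and UFO (AT1G30950), which act earlier in flower formation, had no count in either organ.

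The regulators of anther cell fate and tapetum were next. Of 20 tested, 16 were called above leaf, 3 below it and 1 neither way, and 10 had no leaf count. Of all genes tested, 50.0% were above leaf and 37.9% below it. A gene without a leaf count could pass the filter on low values only through stamens or gynoecium, and one without a stamen count only through leaf or gynoecium. Here and in the lists below, the number of such genes that were called is therefore no support for the list. SPL (AT4G27330), which starts the sporogenous cells, held 29, 27.3 and 27.2 CPM in stamens and no count in leaf. EMS1 (AT5G07280), the receptor kinase that specifies tapetum, held 106, 113 and 108 CPM in stamens and no count in leaf, at least 498-fold apart. TPD1 (AT4G24972), the secreted ligand of EMS1, was lower in stamens, with 3.71, 4.18 and 3.88 CPM in stamens and 21.4, 25.7 and 24.6 in leaf, a log2 change of -2.61 ± 0.13 (SE; adjusted p = 3.97e-28). The receptor stood far above leaf in every stamen library and its ligand below leaf in every one.

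Within the tapetal cascade of transcription factors, none had a leaf count. DYT1 (AT4G21330) and TDF1 (AT3G28470), which act early, held 0.986 to 1.77 and 0.617 to 0.825 CPM in stamens. AMS (AT2G16910), which acts after them, held 101, 92.5 and 92.4 CPM, at least 436-fold over leaf. MYB80 (AT5G56110) held 16.3, 19.6 and 17.6 CPM, at least 81.5-fold, and MS1 (AT5G22260), which acts late, 38.5, 39.8 and 37.1 CPM, at least 176-fold. Measured per length in stamens, AMS stood at 48.4 ± 2.85 FPKM, MYB80 at 17.8 ± 1.56, MS1 at 16.8 ± 0.551 and DYT1 at 2.3 ± 0.682, so the middle and late steps stood above the early one and MYB80 and MS1 did not differ beyond their spread. TGA9 (AT1G08320) and TGA10 (AT5G06839), bZIP factors needed for anther lobes and opening, were high as well. TGA9 held 143, 148 and 153 CPM in stamens and 2.91, 2.63 and 3.49 in leaf, and TGA10 132, 141 and 135 CPM in stamens and no count in leaf.

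Receptor kinases known from both organs went both ways. ER (AT2G26330), a receptor of organ growth, stood at 176, 182 and 184 CPM in stamens and 49.2, 47.3 and 52.9 in leaf, a log2 change of 1.86 ± 0.043 (SE; adjusted p = 7.03e-45). BAM1 (AT5G65700), which acts in early anther layers, stood at 108, 117 and 111 CPM in stamens and 53.9, 55.9 and 56.3 in leaf, a log2 change of 1.02 ± 0.046 (SE; adjusted p = 2.01e-29). Its relative BAM2 (AT3G49670) was lower in stamens, 42.4 to 44.8 CPM in stamens and 91.3 to 107 in leaf. SERK1 (AT1G71830), a coreceptor of EMS1, held 95.7 to 101 CPM in stamens and 4.63 to 6.55 in leaf, whereas SERK2 (AT1G34210), which can replace it, was lower, 31.4 to 34.6 CPM in stamens and 37.3 to 45.6 in leaf. Within each of these pairs of relatives, the members stood on opposite sides of leaf, although SERK2 was not called with libraries scaled by their totals (adjusted p = 0.316). RPK2 (AT3G02130), needed for the middle layer of the anther wall, held 20.4, 18.9 and 22.4 CPM in stamens and 18.1, 17.9 and 19.9 in leaf, overlapped and was not called, but without stamen replicate 2 it was called higher (adjusted p = 0.0328). ROXY1 (AT3G02000), of early anther lobes, was untested, with no count in stamens and no count in leaf.

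Most meiosis genes were higher in stamens. Of 41 tested, 36 were called above leaf, 2 below it and 3 neither way, at a median log2 change of 2.39 at the bound and 13 without a leaf count. The shares of 87.8% and 4.88% stand beside 50.0% and 37.9% of all genes tested. SPO11-1 (AT3G13170), which cuts DNA to start recombination, held 4.23, 4.06 and 4.99 CPM in stamens and no count in leaf. SYN1 (AT5G05490), the meiotic cohesin, held 13.3, 14.3 and 12.7 CPM in stamens and no count in leaf. TAM (AT1G77390), a cyclin of the meiotic divisions, held 11.1, 10.7 and 10.8 CPM in stamens and no count in leaf, and TDM1 (AT4G20900), which ends them, 9.56, 8.54 and 8.63 CPM in stamens and no count in leaf. Levels of these genes were alike in the 3 stamen libraries. DMC1 (AT3G22880), the strand-exchange protein, was present in leaf too, with 7.24, 7.19 and 8.63 CPM in stamens and 1.91, 1.07 and 1.42 in leaf. ASY1 (AT1G67370), of the chromosome axis, held 1.51, 1.77 and 1.79 CPM in stamens and 0.0765, 0 and 0.142 in leaf, and with few leaf counts in all, its ratio was 23.1 (95% interval 7.65 to 114).

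Genes of the end of meiosis were among those farthest from leaf. PS1 (AT1G34355) and JASON (AT1G06660) place the spindles of the second division. PS1 held 33.2, 33.8 and 37.6 CPM in stamens and no count in leaf, at least 159-fold apart, and JASON 20.9, 21.5 and 21.1 CPM in stamens and no count in leaf, at least 96.8-fold. MMD1 (AT1G66170), of male meiosis, held 6.02 to 7.07 CPM in stamens and no count in leaf. Other members were close to leaf or below it. SGO1 (AT3G10440), which protects cohesin, stood at 14.5, 14.5 and 15.5 CPM in stamens and 14.8, 12.8 and 14.9 in leaf and was not called. COM1 (AT3G52115), which trims DNA ends, was lower in stamens, 1.68, 1.41 and 1.05 CPM in stamens and 8.18, 7.05 and 7.41 in leaf, a log2 change of -2.44 ± 0.21 (SE; adjusted p = 1.49e-16). MND1 (AT4G29170), of strand exchange, was also lower, 1.6 to 2.06 CPM in stamens and 2.06 to 3.2 in leaf, a log2 change of -0.52 ± 0.23 (SE; adjusted p = 0.0317), and lost its call without leaf replicate 2 (adjusted p = 0.182), leaf replicate 3 (0.071) or stamen replicate 3 (0.119). DESeq2 (adjusted p = 0.0579) and the 6 libraries alone (0.0529) did not call MND1. Nor did library totals (adjusted p = 0.238) or FPKM plus 1 (0.169) or plus 0.1 (0.177). DFO (AT1G07060) and SWI1 (AT5G51330) were untested, at 0.0617 to 0.463 and 0 CPM in stamens.

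Genes of the pollen wall lay far above leaf. Of 23 tested, 22 were called above leaf and 1 below it, where 50.0% and 37.9% of all genes tested were. Of the 23, 15 had no leaf count. The enzymes that build sporopollenin, the polymer of the outer wall, act in the tapetum in sequence. ACOS5 (AT1G62940), which activates fatty acids, held 804, 828 and 829 CPM in stamens and no count in leaf, at least 3747-fold apart. CYP703A2 (AT1G01280) and CYP704B1 (AT1G69500), which hydroxylate them, held 283 to 294 and 193 to 196 CPM in stamens and no count in leaf. MS2 (AT3G11980), which reduces them to alcohols, held 1615, 1671 and 1664 CPM in stamens and no count in leaf, at least 7540.2-fold apart. For all 4 the stamen libraries were close together and leaf was empty.

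The polyketide synthases and the reductase that follow in the pathway had traces in leaf or none. LAP6 (AT1G02050), a synthase, stood at 660, 644 and 648 CPM in stamens and 5.66, 4.34 and 4.56 in leaf, a log2 change of 7.07 ± 0.062 (SE; adjusted p = 4.57e-68). LAP5 (AT4G34850), its relative, held 352, 353 and 356 CPM in stamens and no count in leaf. DRL1 (AT4G35420), the reductase, stood at 447 to 458 CPM in stamens and 4.34 to 5.89 in leaf. Exporters to the wall were found with them: ABCG26 (AT3G13220), which moves precursors out of the tapetum, held 264 to 269 CPM in stamens and no count in leaf. ABCG9 (AT4G27420), of the pollen coat, held 242 to 256 CPM in stamens and no count in leaf, and ABCG31 (AT2G29940), its partner, 354 to 359 CPM in stamens and 1.35 to 2.42 in leaf. TSM1 (AT1G67990), which methylates the spermidine conjugates of the pollen surface, held 671 to 728 CPM in stamens and no count in leaf, and SHT (AT2G19070), which acylates them, 546 to 568 CPM in stamens and no count in leaf.

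Genes that act on callose and pectin around young microspores were present too. CALS5 (AT2G13680), the callose synthase of the microspore wall, held 61.7, 59.9 and 60 CPM in stamens and no count in leaf. QRT3 (AT4G20050), which separates the microspores of a tetrad, held 457, 470 and 470 CPM in stamens and no count in leaf. QRT1 (AT5G55590) and QRT2 (AT3G07970), which act at the same step, held 42.3 to 46.4 and 4.06 to 5.12 CPM in stamens and no count in leaf. DEX1 (AT3G09090) and NPU (AT3G51610), membrane proteins of early wall patterning, stood near leaf. DEX1 held 128, 129 and 132 CPM in stamens and 121, 110 and 116 in leaf, a log2 change of 0.16 ± 0.042 (SE; adjusted p = 0.000338). NPU was the one member lower in stamens, with 24.3, 22 and 21 CPM in stamens and 28.6, 30.7 and 29.3 in leaf, a log2 change of -0.40 ± 0.077 (SE; adjusted p = 4.86e-06). TEK (AT2G42940) and CYP98A8 (AT1G74540) had no count in any library, and 85% and 94.7% of their exon bases lie inside another gene model.

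Tapetal secretion and pollen coat genes all stood higher in stamens, 15 of 15, beside 50.0% of all genes tested. Of the 15, 12 had no leaf count. Together the 15 summed to 25879 to 26278 CPM in stamens and 16.9 to 18.5 in leaf. ATA20 held 10571, 10783 and 10809.6 CPM in stamens and 16.1, 13.3 and 13 in leaf, a log2 change of 9.57 ± 0.049 (SE; adjusted p = 8.36e-80). ATA27 held 5111, 5263 and 5162 CPM in stamens and no count in leaf, and ATA7 (AT4G28395), a lipid transfer protein, 1043, 922 and 970 CPM in stamens and no count in leaf. The leaf sum therefore came mostly from ATA20. The extracellular lipases of the coat were uneven among stamen libraries or steady. EXL4 (AT1G75910) held 782, 638 and 696 CPM in stamens and no count in leaf, with replicate 1 highest, and EXL6 (AT1G75930) 1286, 1311 and 1293 CPM in stamens and no count in leaf. CEP1 (AT5G50260), a protease of tapetal cell death, stood at 137 to 142 CPM in stamens and 2.06 to 3.13 in leaf, and UND (AT4G12920), a further protease of the tapetum, at 8.57 to 9.56 CPM in stamens and no count in leaf.

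Pollen and pollen tube genes stood on the same side. All 49 tested were higher in stamens, 38 of them without a leaf count, where 50.0% of all genes tested were higher. They summed to 10708 to 11019 CPM in stamens and 30.7 to 31.2 in leaf. VGD1 (AT2G47040), a pectin methylesterase of the pollen tube, held 4219.8, 4441 and 4220.0 CPM in stamens and no count in leaf, at least 19616-fold apart. VGD1 and its neighbour VGDH1 (AT2G47030) are close copies, so reads may be shared between them. STP6 (AT3G05960), a hexose carrier, held 852, 898 and 874 CPM in stamens and no count in leaf, at least 3996-fold, and SKS11 (AT3G13390), a multicopper oxidase-like protein, 642, 645 and 617 CPM in stamens and no count in leaf, at least 2899-fold. Other members had a few leaf counts, 23 in all for SKS13 and 5 for AGP6. SKS13 (AT3G13400), a relative of SKS11, held 1547, 1465 and 1430.3 CPM in stamens and 0.688, 0.498 and 0.498 in leaf, a log2 change of 11.35 ± 0.078 (SE; adjusted p = 1.02e-73). AGP6 (AT5G14380), an arabinogalactan protein of pollen, held 447, 419 and 431 CPM in stamens and 0.0765, 0.214 and 0.0712 in leaf, a log2 change of 11.72 ± 0.11 (SE; adjusted p = 5.44e-66).

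Signalling and transport genes of the pollen tube were found beside those of its wall. ANX1 (AT3G04690), a receptor kinase that keeps the tube intact, held 46.1, 45.1 and 44.9 CPM in stamens and 1.68, 1.92 and 2.56 in leaf, and its partner ANX2 (AT5G28680) 15.6, 16.8 and 16.6 CPM in stamens and no count in leaf. RALF4 (AT1G28270), a peptide that these receptors bind, held 34.4, 26.2 and 32.6 CPM in stamens and no count in leaf, lowest in replicate 2. Of the pollen receptor kinases, PRK2 (AT2G07040) held 122 to 128 CPM in stamens and no count in leaf. The other members, PRK1 (AT5G35390), PRK3 (AT3G42880), PRK4 (AT3G20190), PRK5 (AT1G50610) and PRK6 (AT5G20690), had no leaf count, and their stamen values lay between those of PRK1, 1.11 to 2.3 CPM, and PRK4, 29.5 to 31.3 CPM. Ion transport was represented by ACA9 (AT3G21180), a calcium pump, with 243 to 250 CPM in stamens and no count in leaf. SPIK (AT2G25600), a potassium channel, held 49.8 to 54.1 CPM in stamens and no count in leaf, and CNGC18 (AT5G14870), a calcium channel, 15.5 to 18 CPM in stamens and no count in leaf.

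The pollen transcription factors differed in how far they stood from leaf. AGL104 (AT1G22130) and AGL66 (AT1G77980), MADS factors of late pollen, had no leaf count and held 92.5 to 99.8 and 16.4 to 17.6 CPM in stamens. AGL30 (AT2G03060) held 120 to 130 CPM in stamens and 15.3 to 17.3 in leaf, and AGL65 (AT1G18750), their other partner, 17.4 to 20.3 CPM in stamens and 10.4 to 11.8 in leaf. Of the trio of MYB factors that tubes use within the pistil, MYB101 (AT2G32460) held 112 to 123 CPM in stamens and no count in leaf. The other members, MYB97 (AT4G26930) and MYB120 (AT5G55020), held 1.68 to 1.91 and 2.47 to 4.69 CPM in stamens. ROP1 (AT3G51300), the GTPase of tube growth, was untested, at 0.493 to 0.811 CPM in stamens, and 60.6% of its exon bases lie inside another gene model.

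Genes of the male germline were present at low levels. All 11 tested were higher in stamens, 10 without a leaf count, and their sum was 88 to 93.4 CPM in stamens. Over all genes tested, 50.0% were higher. DUO1 (AT3G60460), the MYB factor that drives generative cell division and sperm fate, held 5.79, 3.42 and 4.07 CPM in stamens and no count in leaf. Its known targets stood near it: DAZ1 (AT2G17180) held 6.47 to 7.18 CPM in stamens and no count in leaf, and DAZ2 (AT4G35280) 2.09 to 3.33 CPM in stamens and no count in leaf. MGH3 (AT1G19890), a histone H3 of sperm, held 11.1, 10.8 and 8.2 CPM in stamens and no count in leaf. HAP2 (AT4G11720), the gamete fusion protein, held 5.21, 5.24 and 5.36 CPM in stamens and no count in leaf, and TIP5;1 (AT3G47440), an aquaporin of pollen, 14.6, 12.8 and 13.6 CPM in stamens and no count in leaf. GEX1 (AT5G55490), of sperm and egg, was the one member also counted in leaf, with 26.6, 26.3 and 25.9 CPM in stamens and 5.58, 5.06 and 4.13 in leaf, a log2 change of 2.42 ± 0.12 (SE; adjusted p = 4.89e-28). GEX2 (AT5G49150), whose exons lie to 96.7% inside another gene model, had no count, and PCR11 (AT1G68610) was untested at 0.471 to 1.23 CPM in stamens.

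DUO1 is known to bind the letters TAACCGTC. Searched on both strands, they occur in the 250 bases before 2 of the 11 germline genes, MGH3 and TIP5;1, in 0.734% of the windows of genes at least 16-fold higher in stamens, in 0.461% of those at least 16-fold lower and in 0.435% of all windows. The window of MGH3 is shown because it holds the site, at chr1:6904713-6904962 on the plus strand of TAIR10.1. Capitals mark, from left to right, a telo box core (AAACCCTA), 2 copies of site II (TGGGCC, read on the other strand) and the DUO1 letters, which begin 246, 227, 219 and 82 bases before the start. The telo box core, an element of ribosomal and cell cycle promoters, occurs in 4.23% of all windows, in 6.13% of those of genes at least 16-fold higher in stamens and in 1.73% of those at least 16-fold lower. Site II occurs in 16.1%, 10.4% and 7.84% of them. The MYB80 site (CCAACC), also searched, occurred in 6.47% of all windows. It lay in 6.67% of tapetal secretion and pollen coat windows, 0.00% of pollen wall and 4.08% of pollen and pollen tube windows. In the germline list it lay in 18.2% and in the glucosinolate list in 23.8%. These matches describe the letters and not the binding of a factor.
MGH3: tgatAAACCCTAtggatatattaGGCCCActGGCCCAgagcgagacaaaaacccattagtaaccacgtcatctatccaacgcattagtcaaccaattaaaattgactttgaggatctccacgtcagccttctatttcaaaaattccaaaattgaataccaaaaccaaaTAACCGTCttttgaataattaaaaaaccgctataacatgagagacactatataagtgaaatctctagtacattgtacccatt

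**Figure D2:**
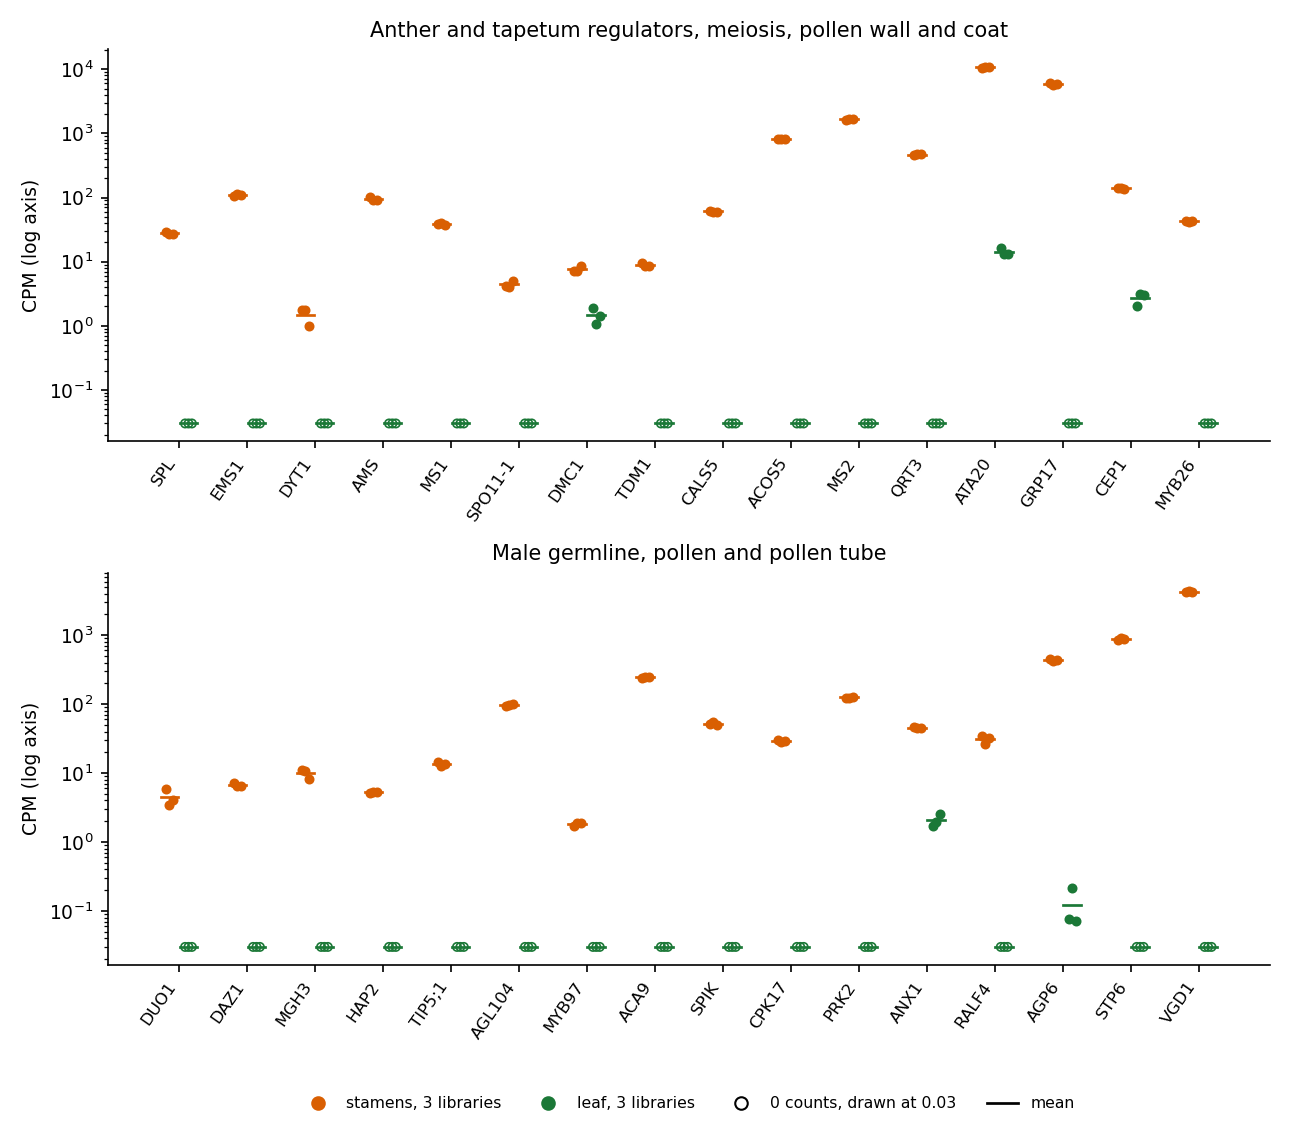
Level of 32 anther and pollen genes in each library (CPM, log axis), with stamens in orange, leaf in green, a line at the mean and open circles for libraries at 0, drawn at 0.03. Stamen libraries lie close together for each gene and above leaf in every one, and leaf has counts only for DMC1, ATA20, CEP1, ANX1 and AGP6.

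The anther opens through a wall layer with secondary thickenings. Of 15 genes of secondary walls and anther opening tested, 14 were called above leaf and 1 below it. Shares over all genes tested were 50.0% and 37.9%. MYB26 (AT3G13890), which starts the thickening, held 42.5, 42.1 and 42.6 CPM in stamens and no count in leaf. Its known targets NST1 (AT2G46770) and NST2 (AT3G61910) had no leaf count and held 28.5 to 34.2 and 16.6 to 20.9 CPM in stamens. The cellulose synthases of secondary walls were higher in all stamen libraries than in any leaf library. CESA4 (AT5G44030) held 197, 204 and 194 CPM in stamens and 1.91, 2.85 and 2.06 in leaf, a log2 change of 6.44 ± 0.084 (SE; adjusted p = 1.34e-58). CESA7 (AT5G17420) held 73.9 to 82.3 CPM in stamens and 3.49 to 5.77 in leaf, and CESA8 (AT4G18780) 42.2 to 50.2 CPM in stamens and 3.84 to 5.2 in leaf. The laccases that polymerize lignin stood out further: LAC4 (AT2G38080) held 270, 277 and 282 CPM in stamens and 0.382, 0.356 and 0.712 in leaf, and LAC17 (AT5G60020) 166, 171 and 169 CPM in stamens and 0.229, 0.427 and 0.356 in leaf, log2 changes of 9.13 ± 0.1 (SE; adjusted p = 2.88e-61) and 8.92 ± 0.12 (SE; adjusted p = 1.08e-58).

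Genes known from vessels and fibres did not all follow. MYB83 (AT3G08500), which acts with MYB46 (AT5G12870) in vessel walls, had no count in stamens and 5.96, 5.91 and 8.69 CPM in leaf, whereas MYB46 was higher in stamens, 6.78, 6.48 and 6.78 CPM in stamens and 1.3, 2.21 and 2.06 in leaf. NST3 (AT1G32770), of fibres, had no count, and VND7 (AT1G71930), of vessels, was untested at 0.0617 to 0.232 CPM in stamens. The xylem proteases were lower in stamens, with 0.29 to 0.412 CPM in stamens and 0.841 to 1.35 in leaf for XCP1 (AT4G35350) and 3.14 to 3.71 CPM in stamens and 4.21 to 6.05 in leaf for XCP2 (AT1G20850). XCP2 was not called on log2 FPKM plus 1 (adjusted p = 0.0687) or plus 0.1 (0.0831). ADPG1 (AT3G57510), a polygalacturonase that loosens cells when the anther opens, held 37.8, 40.1 and 39.3 CPM in stamens and no count in leaf.

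Phenylpropanoid genes went in both directions. Of 19 tested, 14 were called above leaf, 4 below it and 1 neither way, shares of 73.7% and 21.1% beside 50.0% and 37.9% of all genes tested. PAL1 (AT2G37040), an entry enzyme, held 1227, 1215 and 1191 CPM in stamens and 64.7, 68.9 and 69.8 in leaf, and PAL4 (AT3G10340), its relative, 453, 465 and 453 CPM in stamens and 3.9, 4.41 and 3.92 in leaf. CHS (AT5G13930), which makes the flavonoid skeleton, held 1268, 1265 and 1249 CPM in stamens and 65, 68.1 and 65.9 in leaf, a log2 change of 4.25 ± 0.039 (SE; adjusted p = 2.42e-67). Entry and skeleton genes were thus high in all stamen libraries. FLS1 (AT5G08640), which makes flavonols, held 153, 149 and 147 CPM in stamens and 9.25, 10.7 and 8.9 in leaf, a log2 change of 3.96 ± 0.066 (SE; adjusted p = 7.75e-53). UGT79B6 (AT5G54010), which makes flavonol glycosides of pollen, held 113 to 121 CPM in stamens and no count in leaf, and MYB99 (AT5G62320), a tapetal regulator, 280 to 287 CPM in stamens and no count in leaf.

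The 4 genes called lower were UGT78D1 (AT1G30530), DFR, LDOX and PAP1. UGT78D1, which makes flavonol glycosides, held 14.5, 16.3 and 14.7 CPM in stamens and 31.7, 30.5 and 29.1 in leaf, with means 2-fold apart (adjusted p = 7.32e-19). DFR (AT5G42800), an enzyme of anthocyanin synthesis, held 0.406, 0.471 and 0.185 CPM in stamens and 1.68, 0.854 and 1.64 in leaf, a log2 change of -1.94 ± 0.43 (SE; adjusted p = 4.81e-05). LDOX (AT4G22880), which follows, held 0.927, 1.83 and 1.66 CPM in stamens and 2.91, 2.42 and 3.85 in leaf, a log2 change of -1.06 ± 0.28 (SE; adjusted p = 0.000411). PAP1 (AT1G56650), the MYB factor that turns on anthocyanin synthesis, had no count in stamens and 8.34, 8.05 and 8.4 CPM in leaf, at least 46.3-fold apart. For all 4 every leaf library exceeded every stamen library, as for 37.5% of all genes tested. MYB12 (AT2G47460), a MYB factor of flavonol synthesis, was higher and held 2.06 to 3.02 CPM in stamens and no count in leaf. F3H (AT3G51240) was untested with no count, and 93.8% of its exon bases lie inside another gene model.

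Hormone genes went in both directions. Of 20 jasmonate genes tested, 8 were called above leaf, 8 below it and 4 neither way, shares of 40.0% and 40.0% beside 50.0% and 37.9% of all genes tested. Enzymes of jasmonate synthesis were among those lower: LOX2 (AT3G45140) stood at 154, 172 and 166 CPM in stamens and 2214, 2061 and 2143 in leaf, AOS (AT5G42650) at 13.8, 14.7 and 14.9 CPM in stamens and 484, 455 and 456 in leaf. OPR3 (AT2G06050), whose loss leaves anthers closed, stood at 23.6, 20.3 and 19.2 CPM in stamens and 129, 135 and 125 in leaf, a log2 change of -2.62 ± 0.059 (SE; adjusted p = 8.31e-46). The cyclase genes between AOS and OPR3 were unequal: AOC2 (AT3G25770) was lower, 0.348, 0.236 and 0.678 CPM in stamens and 86.9, 85.4 and 83.4 in leaf, AOC4 (AT1G13280) was not called, 74.4, 77 and 81.2 CPM in stamens and 80.1, 84.5 and 83.2 in leaf, and AOC3 (AT3G25780) was higher, 5.36 to 7.94 CPM in stamens and 1.92 to 3.44 in leaf. The direction of AOC4 depended on the scaling. AOC4 was called lower with upper quartile factors (adjusted p = 0.00334), without leaf replicate 1 (0.0399) or without stamen replicate 3 (0.0286). It was called higher with libraries scaled by their totals (adjusted p = 0.00387) and with FPKM plus 1 (0.00733) or plus 0.1 (0.00832). JAR1 (AT2G46370), which conjugates jasmonate to its active form, was higher in stamens, 356, 357 and 350 CPM in stamens and 72.6, 71.8 and 73.6 in leaf. MYB24 (AT5G40350) and MYB108 (AT3G06490), stamen genes that respond to jasmonate, held 2.24 to 4.34 CPM in stamens and no count in leaf and 7.78 to 8.08 CPM in stamens and 0 to 0.153 in leaf. DAD1 (AT2G44810), the lipase that starts the pathway in filaments, had no count, and MYB21 (AT3G27810) was untested, with 0.348 to 0.589 CPM in stamens and no count in leaf.

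Of 15 gibberellin genes tested, 8 were called above leaf, 6 below it and 1 neither way, shares of 53.3% and 40.0% that lie near those of all genes. GA3OX3 (AT4G21690), which makes active gibberellin in flowers, held 14.1, 14 and 13.1 CPM in stamens and no count in leaf, and GA20OX2 (AT5G51810), a step before it, 7.76, 8.48 and 8.32 CPM in stamens and no count in leaf. GA3OX1 (AT1G15550), the main enzyme of shoots, had no count in stamens and 0.765, 0.641 and 0.712 CPM in leaf. Among the DELLA proteins, which repress gibberellin responses, RGL2 (AT3G03450) held 152 to 160 CPM in stamens and 12.2 to 13.8 in leaf, RGA (AT2G01570) 108 to 123 CPM in stamens and 58.8 to 64.6 in leaf and GAI (AT1G14920) 53 to 55.7 CPM in stamens and 75.5 to 85.7 in leaf. The receptors GID1A (AT3G05120) and GID1B (AT3G63010) were lower in stamens, with 54 to 58.2 CPM in stamens and 112 to 115 in leaf and 7.95 to 8.75 CPM in stamens and 15.2 to 17.1 in leaf, and GID1C (AT5G27320) was not called, with 26.9 to 31.8 CPM in stamens and 28.2 to 30.4 in leaf.

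Of 21 auxin genes tested, 10 were higher, 7 lower and 4 not called, shares of 47.6% and 33.3% that lie near the 50.0% and 37.9% of all genes tested, so the values are those of single members. The synthesis genes YUC2 (AT4G13260) and YUC6 (AT5G25620), needed in stamens, were higher there. YUC2 held 26.5, 25.6 and 26 CPM in stamens and 0.153, 0.783 and 0.57 in leaf, and YUC6 22.6, 20.6 and 20.5 CPM in stamens and 1.3, 1.78 and 2.92 in leaf. The efflux carriers PIN3 (AT1G70940), PIN4 (AT2G01420) and PIN7 (AT1G23080) were lower, with 3.48 to 6.04 CPM in stamens and 40.4 to 44.3 in leaf, 3.02 to 3.65 CPM in stamens and 35.2 to 36.3 in leaf and 3.08 to 4.54 CPM in stamens and 40.2 to 43.8 in leaf. ARF17 (AT1G77850), a response factor that acts on the callose wall of microspores, held 383, 402 and 404 CPM in stamens and 28.4, 27.7 and 27.6 in leaf, a log2 change of 3.83 ± 0.047 (SE; adjusted p = 5.15e-60), and ARF8 (AT5G37020), of filament growth, 7.13 to 8.28 CPM in stamens and 6.48 to 7.88 in leaf, not called.

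Sugar transport and cleavage used different members in the organs. Of 20 tested, 12 were called above leaf, 6 below it and 2 neither way, shares of 60.0% and 30.0% beside 50.0% and 37.9% of all genes tested. Among the cell wall invertases, which split sucrose outside cells, CWINV4 (AT2G36190) held 194, 200 and 196 CPM in stamens and no count in leaf and CWINV2 (AT3G52600) 18.8, 21 and 18.7 CPM in stamens and no count in leaf. CWINV1 (AT3G13790) was lower in stamens, 0.637, 0.412 and 1.05 CPM in stamens and 4.74, 6.05 and 6.27 in leaf, so the members stood on opposite sides of leaf. SWEET5 (AT5G62850), a sugar exporter of pollen, held 465, 469 and 465 CPM in stamens and 0.688, 0.427 and 0.356 in leaf, and SWEET8 (AT5G40260), of the tapetum and microspores, 109, 94.1 and 99.6 CPM in stamens and no count in leaf. SWEET11 (AT3G48740) and SWEET12 (AT5G23660), which load the leaf phloem, were lower, with 9.85 to 12.5 CPM in stamens and 58.2 to 63.6 in leaf and 2.3 to 3.33 CPM in stamens and 36.4 to 40.3 in leaf. Outside the list, STP2 (AT1G07340), a hexose carrier of young pollen, was among the 10 genes with a symbol and the largest fitted changes, with 1749, 1806 and 1777 CPM in stamens and no count in leaf.

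Families were counted by word searches of the gene descriptions. Over all genes tested, 50.0% were higher in stamens and 37.9% lower. All 10 DUF1216 genes tested were higher in stamens, 9 without a leaf count, and summed to 23106 to 23741 CPM in stamens and 0.142 to 0.498 in leaf. F-box genes, which select proteins for degradation, were a large family: of 652 listed, 337 were tested, 275 were called above leaf, 40 below it and 22 neither way, and 181 had no leaf count. These 181 passed the filter only through stamens or gynoecium, so the counts describe the genes tested and are no support for a difference of the family. Inhibitors of invertase and pectin methylesterase gave 40 higher and 14 lower of 60 tested, and MADS genes 37 higher and 13 lower of 55. Of these, 34 and 28 had no leaf count, and the same limit holds.

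Some genes that stood apart sit side by side on the chromosomes. Runs of at least 4 neighbouring tested genes that were all called in the same direction at 16-fold or more, with genes at 0 at their bound, numbered 16, of which 13 with 66 genes were higher in stamens and 3 with 16 genes lower. The longest, of 9 genes, runs from AT5G07475 to AT5G07570 and holds the oleosin-domain genes of the pollen coat. GRP17 held 5995, 5705 and 5948 CPM in stamens and no count in leaf, and GRP20 (AT5G07560) 513, 408 and 443 CPM in stamens and no count in leaf. GRP14 (AT5G07510) held 229, 195 and 203 CPM in stamens and no count in leaf, GRP19 (AT5G07550) 213, 157 and 184 CPM in stamens and no count in leaf and GRP16 (AT5G07540) 45.1, 44.3 and 41.3 CPM in stamens and no count in leaf. GRP18 (AT5G07520) alone of these 6 had leaf counts, with 240, 217 and 216 CPM in stamens and 0.382, 0.427 and 0.854 in leaf. Stamen replicate 1 was the highest library for each of the 6.

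A run of 8 genes from AT1G23560 to AT1G23645 carries mostly the domain DUF220. Its members ranged in stamens from 3.36 to 4.59 CPM for AT1G23645 to 461 to 505 CPM for AT1G23570, and AT1G23640 alone had counts in leaf. The run of 7 genes from AT3G28770 to AT3G28840 holds DUF1216 genes, from 17.7 to 34.2 CPM for AT3G28810 up to AT3G28830. A further run on chromosome 3 holds pectin lyase-like genes, from 9.25 to 10.3 CPM for AT3G07840 to 4127 to 4221 CPM for AT3G07850. EXL4, EXL6 and ATA27 with AT1G75920 form another. Neighbouring copies can share reads, so the values of single members are less certain than those of the runs.

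Common cell machinery showed members that were found in stamens beside members shared with leaf. Actin had 5 of 8 genes higher in stamens (62.5%), where 50.0% of all genes tested were. ACT12 (AT3G46520), ACT4 (AT5G59370) and ACT3 (AT3G53750), known from pollen, stood at 16.8 ± 0.468, 53.1 ± 3.56 and 145 ± 1.54 FPKM in stamens. In leaf ACT12 had no count, and ACT4 and ACT3 stood at 0.631 ± 0.14 and 9.98 ± 0.787 FPKM. ACT2 (AT3G18780), of vegetative tissue, stood at 39.6 ± 1.88 and 226 ± 10.4 FPKM, and ACT7 (AT5G09810) at 241 ± 3.18 and 318 ± 9.31. Profilins PRF4 (AT4G29340) and PRF5 (AT2G19770) had 31.8 ± 3 and 22.2 ± 3 FPKM in stamens and no leaf count, while PRF2 (AT4G29350) had 15.8 ± 3.3 against 70.4 ± 8.53 in leaf. Among the actin depolymerizing factors, ADF10 (AT5G52360) and ADF7 (AT4G25590) had 99.6 ± 2.58 and 52.3 ± 3.21 FPKM in stamens and no leaf count, and ADF3 (AT5G59880) had 52.3 ± 3.29 against 170 ± 5.27 in leaf. Pairs of actin genes, ACT1 with ACT3 and ACT4 with ACT12, are close copies.

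The proton pumps of the plasma membrane showed a wide gap. AHA6 (AT2G07560), AHA9 (AT1G80660) and AHA8 (AT3G42640), known from pollen, stood at 1206 ± 24.7, 466 ± 9.95 and 100 ± 2.25 FPKM in stamens. AHA6 held 4259, 4482 and 4401 CPM in stamens and no count in leaf, at least 20013-fold apart. AHA9 held 1659, 1748 and 1693 CPM in stamens and 0, 0.0712 and 0 in leaf, and its ratio was 69986 (95% interval 12561 to 2764314). AHA8 stood at 0.722 ± 0.0739 FPKM in leaf. AHA1 (AT2G18960) and AHA2 (AT4G30190), the pumps of most tissues, were lower in stamens, at 193 ± 4.69 and 31.6 ± 0.409 FPKM against 267 ± 5.53 and 72.2 ± 1.38. AHA3 (AT5G57350) stood at 143 ± 1.53 and 128 ± 4.88 FPKM, and its small log2 change in CPM, -0.08 ± 0.034 (SE; adjusted p = 0.0347), with overlapping libraries, changed sign when libraries were scaled by totals or FPKM was used. Its call ended without leaf replicate 1 (adjusted p = 0.186), leaf replicate 3 (0.118), stamen replicate 1 (0.248) or stamen replicate 3 (0.0743). The 6 libraries alone did not call AHA3 (adjusted p = 0.0805), nor did DESeq2 (0.136) or DESeq2 size factors (0.113). Without gynoecium replicate 1, 2 or 3 it was not called either (adjusted p = 0.18, 0.145 and 0.145). Poly(A)-binding proteins PAB5 (AT1G71770), PAB3 (AT1G22760) and PAB7 (AT2G36660) stood at 392 ± 10.5, 265 ± 0.732 and 47.4 ± 1.28 FPKM with no leaf count, and PAB2 (AT4G34110), PAB4 (AT2G23350) and PAB8 (AT1G49760) at 83.3 ± 0.924, 153 ± 3.46 and 41.9 ± 0.483 against 66.5 ± 1.31, 99 ± 5.18 and 23.1 ± 0.228.

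Tubulins went both ways. Of 13 genes tested, 6 were called above leaf and 7 below it, shares of 46.2% and 53.8% beside 50.0% and 37.9% of all genes tested. TUB1 (AT1G75780) held 3.71, 3.06 and 2.9 CPM in stamens and 0, 0 and 0.0712 in leaf, a ratio of 133 (95% interval 23.5 to 5284). TUB5 (AT1G20010) lay on the other side, 28.6, 30.3 and 27.1 CPM in stamens and 244, 227 and 232 in leaf, a log2 change of -3.03 ± 0.05 (SE; adjusted p = 2.67e-53). TUB4 (AT5G44340) was called lower by a narrow margin, 273, 278 and 269 CPM in stamens and 305, 289 and 294 in leaf, and its sign changed with library totals and FPKM. In none of the 3 did the libraries of the organs overlap, nor did they for 87.2% of all genes tested.

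Of 33 cell cycle genes tested, 18 were called above leaf, 10 below it and 5 neither way, shares of 54.5% and 30.3% that lie near the 50.0% and 37.9% of all genes tested. CYCB1;1 (AT4G37490), a mitotic cyclin, held 7.82, 9.43 and 10.5 CPM in stamens and 0, 0.142 and 0 in leaf, a ratio of 190 (95% interval 52.2 to 1571). CDC20.1 (AT4G33270), an activator of the anaphase complex, held 48, 49.8 and 49.4 CPM in stamens and 3.21, 2.78 and 2.63 in leaf, a log2 change of 4.09 ± 0.094 (SE; adjusted p = 2.99e-45), and CDKB2;1 (AT1G76540), a mitotic kinase, 19.9 to 21.9 CPM in stamens and 3.77 to 4.66 in leaf. These mitotic genes were high in every stamen library. The helicase genes MCM3 (AT5G46280) and MCM6 (AT5G44635), of DNA replication, were close to leaf. MCM3 was called lower, 35.7, 35 and 36.4 CPM in stamens and 41.7, 38.2 and 43.9 in leaf, though its sign changed with library totals and FPKM, and MCM6 was not called, 13.4, 12 and 10 CPM in stamens and 13.5, 12.2 and 12 in leaf. CDKA;1 (AT3G48750), used throughout the cycle, was lower in stamens, 29.8, 26.7 and 27.6 CPM in stamens and 60.2, 57.4 and 61.4 in leaf, a log2 change of -1.09 ± 0.061 (SE; adjusted p = 7.65e-25).

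Photosynthesis genes were all lower in stamens, yet each tested gene of the photosystem and Calvin cycle lists had counts there. All 48 light harvesting and photosystem genes tested were called lower, at a median log2 change of -4.08, and all 21 of the Calvin cycle, with a median of -4.34, where 37.9% of all genes tested were lower. The photosystem list summed to 7499 to 7773 CPM in stamens and 127602 to 135096 in leaf. Members differed widely around the median. LHCB1.4 (AT2G34430), of the antenna, held 29.5, 29.9 and 26.6 CPM in stamens and 7581, 7977 and 7508 in leaf, a log2 change of -8.07 ± 0.048 (SE; adjusted p = 2.28e-71). LHCB2.1 (AT2G05100), of the same antenna, held 258, 261 and 258 CPM in stamens and 568, 613 and 572 in leaf, a log2 change of -1.17 ± 0.036 (SE; adjusted p = 5.97e-38). The stamen libraries lay below leaf for both, by very unequal steps. PSBO1 changed by -3.66 ± 0.032 (SE; adjusted p = 4.3e-68) and its copy PSBO2 (AT3G50820) by -2.08 ± 0.059 (SE; adjusted p = 2.56e-40). FNR2 (AT1G20020) and FNR1 (AT5G66190), which pass electrons to NADP, changed by -5.76 ± 0.049 (SE; adjusted p = 7.98e-69) and -3.93 ± 0.035 (SE; adjusted p = 1.78e-67).

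Carbon entry and fixation were equally uneven. CA1 (AT3G01500), a carbonic anhydrase of chloroplasts, held 12.6, 12.6 and 13.3 CPM in stamens and 4742, 4963 and 4887 in leaf, 379-fold lower. CA2 (AT5G14740), its relative, held 2.38, 1.53 and 2.03 CPM in stamens and 2179, 2235 and 2186 in leaf, 1106-fold lower. The Rubisco small subunits stood in different ranges of stamens: RBCS1A held 135, 98.7 and 131 CPM in stamens and 3795, 2697 and 3032 in leaf, whereas RBCS1B (AT5G38430) held 0.463, 0.53 and 0.37 CPM in stamens and 298, 249 and 269 in leaf. RBCS2B (AT5G38420) held 0.637, 0.589 and 1.6 CPM in stamens and 480, 451 and 454 in leaf. The Rubisco genes are near-identical, so reads may be shared among them. TKL1 (AT3G60750), a transketolase, kept more of its leaf level, with 601 to 632 CPM in stamens and 3956 to 4039 in leaf, a log2 change of -2.71 ± 0.032 (SE; adjusted p = 3.94e-61), and TIM (AT2G21170), triose phosphate isomerase, 306 to 314 CPM in stamens and 1081 to 1085 in leaf, a log2 change of -1.81 ± 0.032 (SE; adjusted p = 2.58e-51).

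Photorespiration, chlorophyll and carotenoid genes had smaller medians. All 10 photorespiratory genes tested were lower, at a median log2 change of -3.21, and all 20 chlorophyll and carotenoid genes, with a median of -1.90. Over all genes tested, 37.9% were lower. GDCH (AT2G35370), a subunit of glycine decarboxylase, changed by -5.45 ± 0.055 (SE; adjusted p = 1.2e-55), and CAT2 (AT4G35090), a catalase that also serves outside photosynthesis, by -0.87 ± 0.033 (SE; adjusted p = 2.05e-33). CHLI1 (AT4G18480), a subunit of the enzyme that inserts magnesium into chlorophyll, held 159, 168 and 165 CPM in stamens and 1198, 1180.3 and 1202 in leaf. HEMA1 (AT1G58290), at the entry of the pathway shared with haem, held 238, 251 and 243 CPM in stamens and 401, 380 and 403 in leaf. All stamen libraries lay below leaf for these genes. ZDS (AT3G04870), of carotenoid synthesis, differed little, 72.2, 79.1 and 74.1 CPM in stamens and 90.6, 90.2 and 90.1 in leaf, and was not called with libraries scaled by their totals (adjusted p = 0.544). PORA (AT5G54190), which reduces protochlorophyllide, differed most in the list, 0.29, 0.766 and 0.123 CPM in stamens and 36.9, 37 and 40.2 in leaf, a log2 change of -6.56 ± 0.19 (SE; adjusted p = 1.03e-39).

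Genes of the chloroplast genome were lower too, 99 of 99 tested, at a median log2 change of -2.93, where 37.9% of all genes tested were lower. ATCG00350 held 3635, 3778 and 3674 CPM in stamens and 30089, 29209 and 30024 in leaf. Of 152 mitochondrial genes 104 were untested. Among the 48 tested, 31 were higher, 4 lower and 13 not called, shares of 64.6% and 8.33% beside 50.0% and 37.9% of all genes tested. Their median log2 change at the bound was 0.71, against 0.21 for all genes. Of the 48, 6 had no leaf count and passed the filter only through stamens or gynoecium. Mitochondrial genes took 0.619% to 0.672% of stamen counts and 0.233% to 0.248% of leaf counts. How organelle transcripts entered the libraries is not given in the sources used here.

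Light-responsive promoters are known for a G-box (CACGTG) and an I-box (GATAAG). In windows of 250 bases, read on both strands, the G-box occurred in 8 of 48 photosystem genes (16.7%) and in 7.21% of all windows, and the I-box in 12 of 48 (25.0%) and in 12.4% of all windows. Windows of genes at least 16-fold lower in stamens held the G-box in 5.77% and the I-box in 15.6%. Those of genes at least 16-fold higher held them in 7.68% and 12.5%. PSBQ-2 (AT4G05180), a further subunit of the water-splitting complex, is shown because its window holds both. It held 18.7, 14.4 and 18.6 CPM in stamens and 389, 462 and 415 in leaf, and its window lies at chr4:2673244-2673493 on the minus strand of TAIR10.1. Capitals mark G-boxes that begin 145 and 77 bases before the start and an I-box that begins 15 bases before it.
PSBQ-2: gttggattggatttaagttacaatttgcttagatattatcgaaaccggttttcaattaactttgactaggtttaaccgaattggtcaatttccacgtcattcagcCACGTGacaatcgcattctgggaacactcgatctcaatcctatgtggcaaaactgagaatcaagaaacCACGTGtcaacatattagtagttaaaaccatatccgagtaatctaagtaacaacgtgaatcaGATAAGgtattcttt

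Glucosinolates, the sulfur-rich defence compounds of cabbages and their relatives, were represented by 21 genes tested, all lower in stamens, at a median log2 change of -4.61, -4.61 at the bound. Over all genes tested, 37.9% were lower. BCAT4 (AT3G19710), which starts methionine chain elongation, had no count in stamens and 132, 121 and 123 CPM in leaf, at least 702-fold apart. CYP79F1 (AT1G16410), which turns elongated methionine into an oxime, held 1.04, 1.12 and 1.17 CPM in stamens and 127, 119 and 121 in leaf. CYP79B2 (AT4G39950), which does so with tryptophan, held 2.72, 2.3 and 2.96 CPM in stamens and 121, 114 and 122 in leaf. Both arms of the pathway were thus high in all leaf libraries and low in all stamen libraries. Of the regulators, MYB28 (AT5G61420) held 5.79, 4.36 and 3.21 CPM in stamens and 141, 138 and 148 in leaf, and MYB29 (AT5G07690) had no count in stamens and 21.7, 16.8 and 19.6 CPM in leaf. The transporter NPF2.11 (AT5G62680) was closer to leaf, with 72.9 to 79.1 CPM in stamens and 105 to 108 in leaf, as was the myrosinase TGG2 (AT5G25980), which cleaves glucosinolates, with 138 to 143 CPM in stamens and 927 to 950 in leaf. CYP79F2 (AT1G16400) and MAM3 (AT5G23020) were untested, at 0.29 to 0.432 and 0 to 0.247 CPM in stamens and 0 in leaf, and 0% of the exon bases of CYP79F2 lie in another gene model.

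Defence genes, most of them of the salicylate pathway, were lower in stamens for 22 of 24 tested, at a median log2 change of -3.55 at the bound. The share lower over all genes tested was 37.9%. PR1 (AT2G14610), an antimicrobial protein used as a marker of salicylate, had no count in stamens and 96.5, 107 and 103 CPM in leaf, at least 571-fold apart. PR2 (AT3G57260), a glucanase, held 0.174, 0 and 0 CPM in stamens and 266, 274 and 258 in leaf, a ratio of leaf to stamens of 4471 (95% interval 1529 to 21684). PR5 (AT1G75040), a thaumatin-like protein, held 0.811, 1 and 1.23 CPM in stamens and 158, 155 and 152 in leaf, a log2 change of -7.25 ± 0.10 (SE; adjusted p = 4.88e-57). The leaf libraries were alike in these 3 markers and far above stamens. EDS1 (AT3G48090) and PAD4 (AT3G52430) relay signals from immune receptors. EDS1 held 10.4, 9.37 and 9.68 CPM in stamens and 119, 123 and 120 in leaf, and PAD4 1.97, 3.12 and 2.59 CPM in stamens and 100, 107 and 100 in leaf. ICS1 (AT1G74710), which makes salicylate, held 5.56, 5.3 and 4.13 CPM in stamens and 14.2, 16.3 and 15.9 in leaf, a log2 change of -1.63 ± 0.13 (SE; adjusted p = 6.96e-18). PDF1.2 (AT5G44420), a defensin of the jasmonate and ethylene branch, had no count in stamens and 16.9, 19.7 and 17.9 CPM in leaf. No stamen library overlapped a leaf library in these 7 genes, and leaf lay above stamens without overlap for 37.5% of all genes tested.

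Receptors of microbial patterns and their partners were lower or higher by less. FLS2 (AT5G46330), the flagellin receptor, held 14, 15.6 and 14.7 CPM in stamens and 64.8, 58.3 and 56.6 in leaf, a log2 change of -2.02 ± 0.076 (SE; adjusted p = 1.09e-33). BAK1 (AT4G33430), its coreceptor, which also serves hormone signalling, held 47.2, 50.3 and 47.9 CPM in stamens and 59.9, 57.8 and 57 in leaf, a log2 change of -0.26 ± 0.056 (SE; adjusted p = 1.82e-05), and was not called with libraries scaled by their totals (adjusted p = 0.616). RBOHD (AT5G47910), the oxidase of the immune burst, was the only tested list member higher in stamens, 66.6, 75 and 72.1 CPM in stamens and 51.2, 48.8 and 50.8 in leaf, a log2 change of 0.50 ± 0.056 (SE; adjusted p = 2.19e-12). ACD6 (AT4G14400), a membrane protein that promotes salicylate responses, lies outside the list and had the largest fitted change of genes with a symbol that were lower in stamens and had at least 20 CPM in leaf. It had no count in stamens and 2135, 1991 and 2102 CPM in leaf, at least 11632-fold apart.

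The receptor genes tested leaned the same way. Of 33 cysteine-rich receptor kinases tested, 29 were lower in stamens and 4 higher, and 10 of the 33 had no stamen count. These 10 passed the filter only through leaf or gynoecium. The counts therefore describe the genes tested and are no support for a difference of the family. Of 145 genes described as disease resistance, 99 were lower and 33 higher, where 37.9% and 50.0% of all genes tested were. Leucine-rich repeat genes gave 115 lower and 57 higher of 187. All 3 runs of neighbours lower in stamens hold receptor kinases. CRK6 (AT4G23140) had no count in stamens and 164, 168 and 163 CPM in leaf, and its neighbours CRK5 (AT4G23130) and CRK7 (AT4G23150), also without a stamen count, 27.1 to 28.5 and 30.7 to 34.8 CPM in leaf. The run also holds CRK8 (AT4G23160) and EP1 (AT4G23170), and CRK18 (AT4G23260), with no count in stamens and 109, 100 and 106 CPM in leaf, stands in a nearby run. The third has the wall-associated kinases, which bind pectin, and WAK1 (AT1G21250) held 1.91, 2.89 and 2.47 CPM in stamens and 1019, 940 and 949 in leaf, a log2 change of -8.64 ± 0.065 (SE; adjusted p = 1.56e-71).

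**Figure D3:**
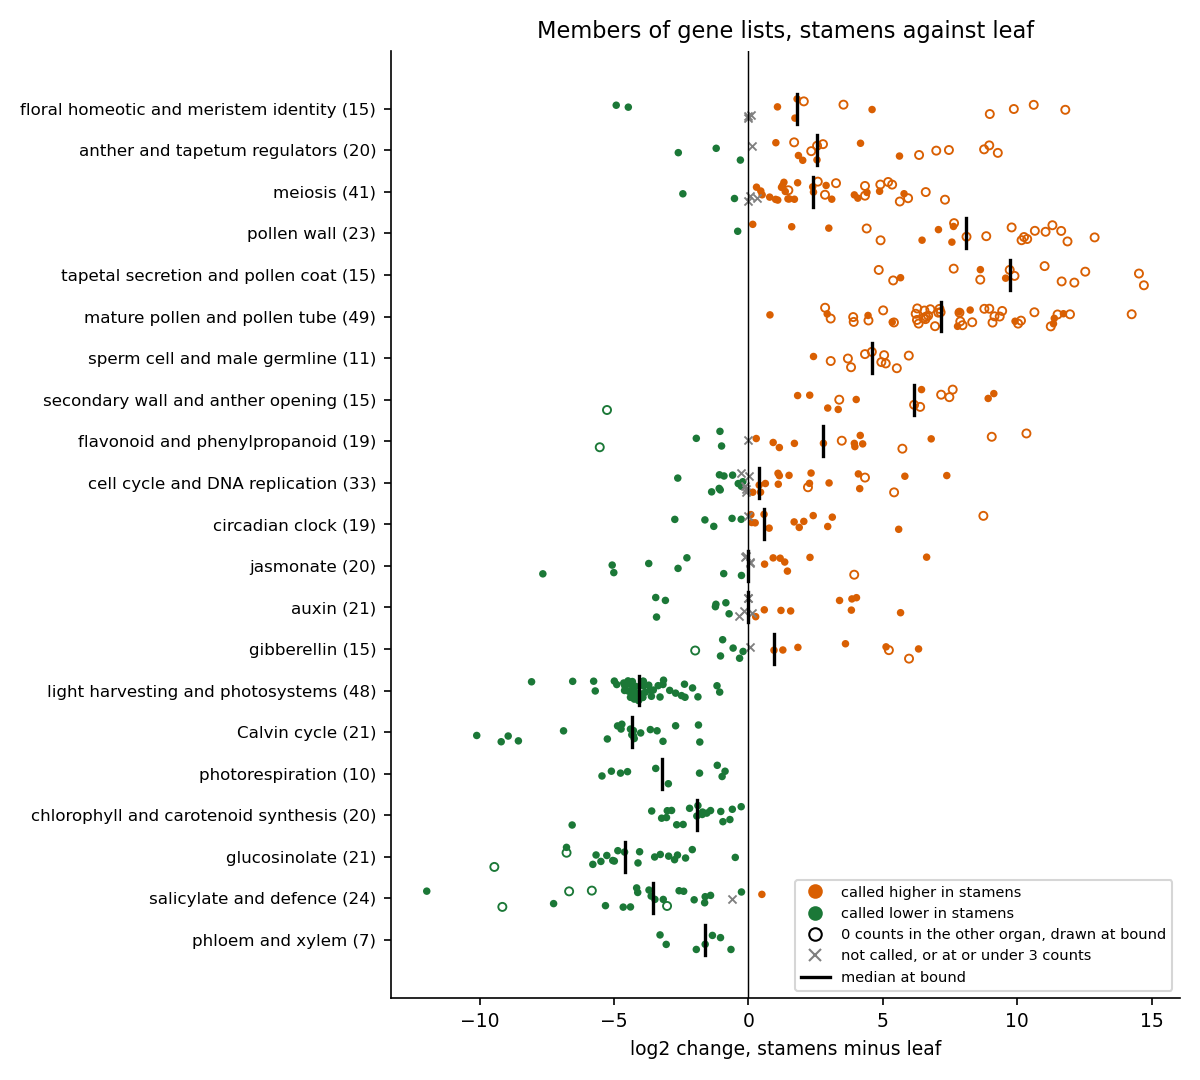
Log2 change from leaf to stamens of every tested member of 21 gene lists, with members tested in brackets. Filled points were called, open points had 0 counts in the other organ and are drawn at the bound, crosses were not called or had at most 3 counts, and bars mark medians at the bound. Anther, pollen and wall lists lie to the right, photosynthesis, glucosinolate and defence lists to the left, and cell cycle, clock and hormone lists on both sides.

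Clock genes went in both directions, 13 higher in stamens, 5 lower and 1 not called of 19 tested, shares of 68.4% and 26.3% beside 50.0% and 37.9% of all genes tested. The clock is a loop of regulators that peak at set hours of the day. CCA1 (AT2G46830), a MYB factor of dawn, held 89.7, 99.3 and 91.9 CPM in stamens and no count in leaf, at least 428-fold apart. LHY (AT1G01060), its partner, held 48.4, 51.1 and 44.8 CPM in stamens and 0.459, 1.5 and 0.997 in leaf, a log2 change of 5.59 ± 0.13 (SE; adjusted p = 4.23e-44). Of the morning genes, PRR9 (AT2G46790) held 17.7 to 19.1 CPM in stamens and 1.57 to 2.75 in leaf, LNK2 (AT3G54500) 97.6 to 104 CPM in stamens and 12.9 to 13.3 in leaf and RVE8 (AT3G09600) 17.4 to 19.9 CPM in stamens and 2.83 to 3.77 in leaf. All of these were higher in every stamen library. CDF1 (AT5G62430), a repressor of the morning, was lower, 3.24, 2.53 and 2.9 CPM in stamens and 5.96, 7.19 and 8.05 in leaf. Genes of the afternoon and evening lay on both sides of leaf. BOA (AT5G59570), a relative of LUX, was higher, 181, 192 and 182 CPM in stamens and 42.4, 45.4 and 45.4 in leaf, a log2 change of 2.06 ± 0.049 (SE; adjusted p = 3.88e-44). PRR5 (AT5G24470) was called higher with overlapping libraries, 14.8, 13.3 and 14.1 CPM in stamens and 11.9, 10.3 and 13.4 in leaf, a log2 change of 0.25 ± 0.11 (SE; adjusted p = 0.0286), and lost its call with upper quartile factors (adjusted p = 0.0843), without leaf replicate 2 (0.215) or without stamen replicate 1 (0.0725). GI (AT1G22770) held 59.7, 59.9 and 63.6 CPM in stamens and 66.8, 54.9 and 62.2 in leaf, overlapped and was not called. TOC1 (AT5G61380), a repressor of CCA1, held 195, 204 and 197 CPM in stamens and 304, 294 and 309 in leaf, and FKF1 (AT1G68050), a light sensor, 29.4, 29.3 and 32.4 CPM in stamens and 90.8, 92.3 and 96.1 in leaf. ELF4 (AT2G40080), of the evening complex, held 10, 10.5 and 9.68 CPM in stamens and 68, 67.3 and 66.4 in leaf, a log2 change of -2.74 ± 0.079 (SE; adjusted p = 6.7e-40), and ELF3 (AT2G25930), its partner, 128 to 136 CPM in stamens and 147 to 164 in leaf. TOC1, FKF1, ELF4 and ELF3 were called lower, though ELF3 was not with library totals (adjusted p = 0.367) or with FPKM plus 1 (0.473) or plus 0.1 (0.478). Since the labels give no hour of collection, organ and hour cannot be told apart.

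The clock is known to act through the G-box and the evening element. The G-box lay in the windows of 7 of 19 clock genes (36.8%), against 7.21% of all windows. These were BOA, CCA1, LHY, LUX, PRR7, PRR9 and RVE1, and all 7 were called higher in stamens, where 50.0% of all genes were. LUX (AT3G46640) among them barely differed, 249, 269 and 264 CPM in stamens and 248, 246 and 239 in leaf, and lost its call with upper quartile factors (adjusted p = 0.277) and without leaf replicate 3 (0.0735), stamen replicate 2 (0.0875) or stamen replicate 3 (0.0549). The core of the evening element, AAATATCT, lay in 6 of 19 (31.6%), 3 of them higher and 3 lower, against 4.92% of all windows. Shown is CCA1, at chr2:19245341-19245590 on the plus strand of TAIR10.1, and capitals mark its G-box, which begins 193 bases before its start.
CCA1: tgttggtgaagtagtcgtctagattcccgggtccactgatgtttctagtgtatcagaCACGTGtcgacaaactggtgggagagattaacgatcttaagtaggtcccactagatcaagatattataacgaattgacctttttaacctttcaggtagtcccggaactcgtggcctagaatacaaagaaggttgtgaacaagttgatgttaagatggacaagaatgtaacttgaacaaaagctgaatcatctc

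Of 7 flowering-time genes tested, 2 were called above leaf and 5 below it, where 50.0% and 37.9% of all genes tested were. SVP (AT2G22540), a repressor of flowering, held 2.78, 2.95 and 3.45 CPM in stamens and 161, 148 and 150 in leaf, a log2 change of -5.64 ± 0.082 (SE; adjusted p = 5.07e-56). AGL24 (AT4G24540), its relative, held 0.29, 0.589 and 0.493 CPM in stamens and 25.4, 30.3 and 25.5 in leaf, and SOC1 (AT2G45660), an activator, 59.7, 63.9 and 62.8 CPM in stamens and 234, 241 and 239 in leaf. FT (AT1G65480), the mobile signal made in leaf veins, had no count in stamens and 2.68, 3.13 and 2.06 CPM in leaf. Leaf libraries were the higher ones in each of these 4. FLC (AT5G10140), a repressor, ran the other way at low level, 2.26, 1 and 1.36 CPM in stamens and 0, 0.142 and 0 in leaf, with a ratio of 31.8 (95% interval 8.52 to 267), and 68.1% of its exon bases lie inside another gene model. FLM (AT1G77080), its relative, was called higher in stamens by a small margin, 95, 95.8 and 95.9 CPM in stamens and 87.1, 86.6 and 90.5 in leaf, a log2 change of 0.12 ± 0.045 (SE; adjusted p = 0.0134), and was not called with upper quartile factors (adjusted p = 0.163). CO (AT5G15840), which activates FT, was untested with 0 to 0.232 CPM in stamens and 0.0712 to 0.285 in leaf.

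**Figure D4:**
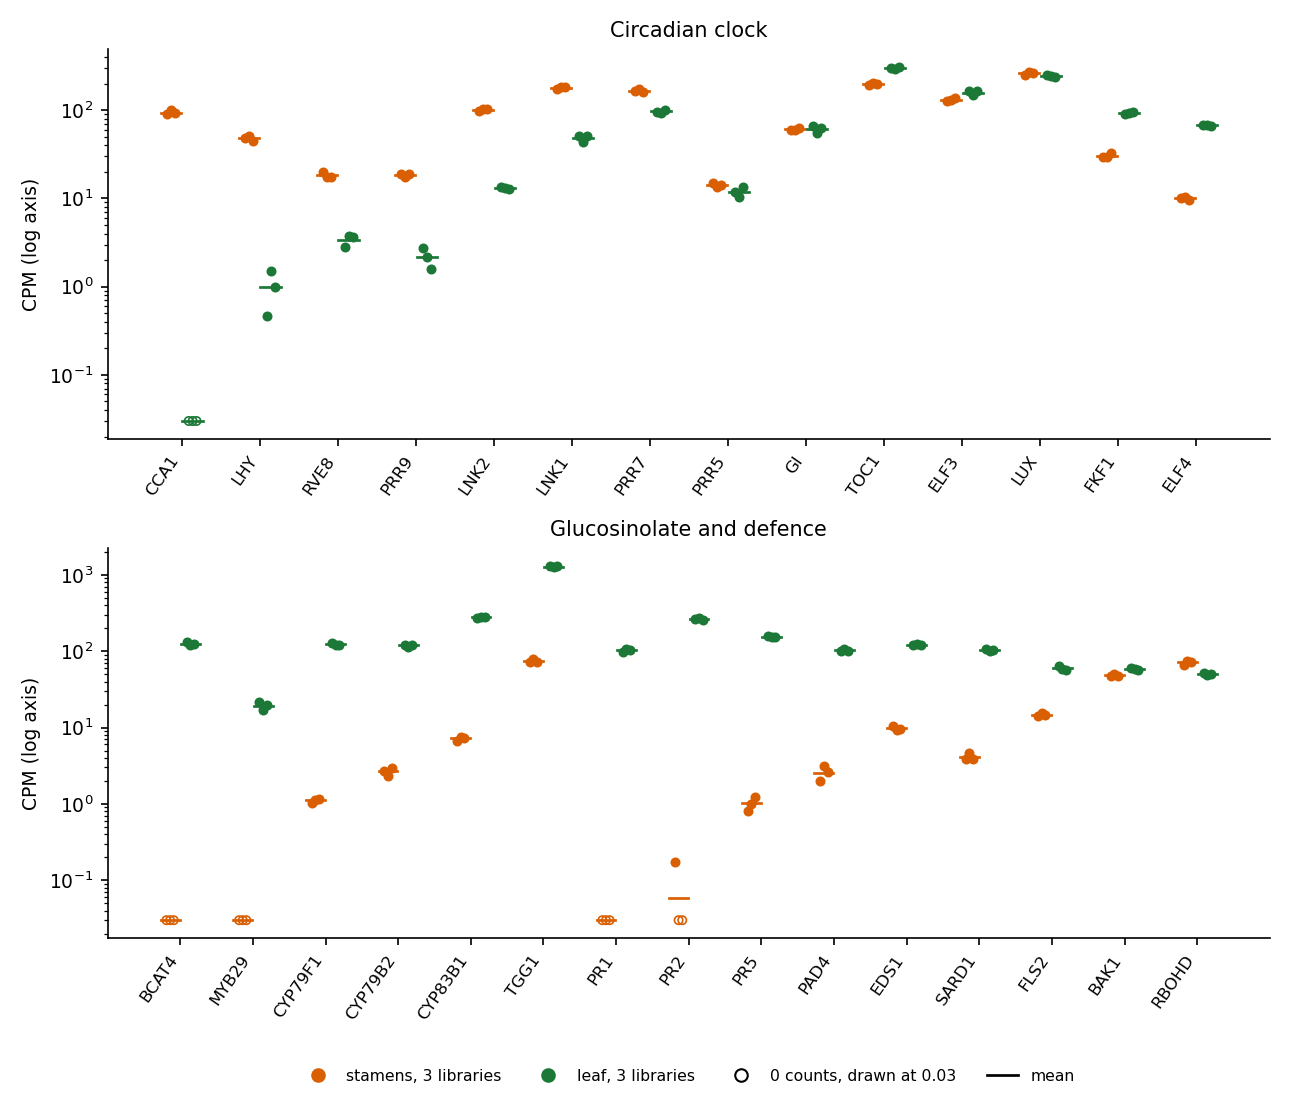
Level of 14 clock genes and 15 glucosinolate and defence genes in each library (CPM, log axis), with stamens in orange, leaf in green, a line at the mean and open circles for libraries at 0, drawn at 0.03. The dawn genes CCA1 and LHY stand highest over leaf and ELF4 lowest, and of the defence genes RBOHD alone lies above leaf.

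Stress and senescence genes were set beside these results. Of 6 heat shock genes tested, 5 were higher in stamens and 1 was not called, where 50.0% of all genes tested were higher. HSP70 (AT3G12580), a chaperone, held 270, 281 and 268 CPM in stamens and 6.42, 7.4 and 7.33 in leaf, a log2 change of 5.27 ± 0.064 (SE; adjusted p = 1.75e-60). HSFA2 (AT2G26150), a heat shock factor, held 116, 120 and 123 CPM in stamens and 16.8, 13.2 and 17.1 in leaf, and BIP3 (AT1G09080), of the endoplasmic reticulum stress response, 28, 26.9 and 27.6 CPM in stamens and 28.8, 28 and 32.5 in leaf, not called. Wound, touch and cold genes were split, 10 higher and 6 lower of 16, shares of 62.5% and 37.5% beside 50.0% and 37.9% of all genes tested. ZAT6 (AT5G04340), a zinc finger factor induced by stress, stood at 66.5, 63.7 and 67.8 CPM in stamens and 20, 20.6 and 17.1 in leaf, and WRKY40 (AT1G80840), induced by wounding, at 31.3, 28.9 and 27.3 CPM in stamens and 68.8, 73.4 and 74.1 in leaf. Senescence genes gave 6 higher and 4 lower of 10, shares of 60% and 40% beside the same 50.0% and 37.9%. DIN6 (AT3G47340), an asparagine synthetase induced by darkness, held 1362, 1384 and 1360.1 CPM in stamens and 52.2, 56 and 59.5 in leaf, and SAG12 (AT5G45890), a marker of old leaves, had no count in either organ. The part of these genes in the other results was not tested.

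The filter on low counts left 54 of the 679 list members untested, and 33 of these had no count in stamens or leaf. The others reached at most 1.23 CPM in a library. Besides those described with their lists, the untested members include ADF11, ADF8 and ADF9 of the actin depolymerizing factors, PAB1 of the poly(A)-binding proteins and LHCB1.5 of the antenna. They also include YUC1, GA20OX3, GA3OX2, GA3OX4, MYB57 and MYC2 of the hormone lists, GUN4 and PGLP1 of the chloroplast lists and TFL1 and TSF of flowering time. The rest are HSP17.4, HSP21 and RRTF1 of the stress lists, RPS2 of defence, SUC8 and SUC9 of sugar transport, EPF1, EPF2, EPFL9, MUTE and SLAC1 of stomata, CPC of leaf hairs, and the root genes CASP1, EXP7, LRX1, NRT2.1, PLT1, RHD6 and WOX5.

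Markers of other cell types were set beside the comparison as well. Of 17 carpel and ovule genes, 10 were called above leaf (58.8%) and 3 below it (17.6%), beside 50.0% and 37.9% of all genes tested. The 4 called neither way had no count in stamens or leaf, and 11 in all had no leaf count. The list summed to 94.2 to 95.1 CPM in stamens and 143 to 155 in leaf. Most of the stamen sum came from SPT (AT4G36930), known also from other floral organs, at 63.4, 64 and 63.6 CPM. Some members stood near the floor in stamens: CRC (AT1G69180), of carpels and nectaries, at 0.247 to 0.579 CPM, INO (AT1G23420), of ovules, at 0.29 to 0.801, STK (AT4G09960), of ovules, at 0.123 to 0.695 and SHP2 (AT2G42830) at 0. STK was still called above leaf, though not with FPKM plus 1 (adjusted p = 0.0712). BEL1 (AT5G41410), of ovules, was higher in leaf, 9.21, 8.01 and 8.75 CPM in stamens and 125, 113 and 119 in leaf. Of the petal list, BPE (AT1G59640), a growth regulator, held 218, 224 and 226 CPM in stamens and 5.96, 5.91 and 6.76 in leaf, and RBE (AT5G06070) had no count. Root genes without leaf counts included IRT1 (AT4G19690), an iron transporter also known from anthers, at 87.4, 93.2 and 92 CPM, and COBL9 (AT5G49270), known from root hairs, at 27.8, 29.1 and 28.2, while 7 of 11 root genes had no count. Their part in the results was not tested.

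Cell types of the leaf gave mixed values. Phloem and xylem genes were all lower in stamens, 7 of 7, where 37.9% of all genes were and where XCP2 lost its call on FPKM, with APL (AT1G79430), a phloem regulator, at 7.18, 6.13 and 4.87 CPM in stamens and 49.8, 47.5 and 54.5 in leaf. Of 11 stomatal genes tested, 6 were called above leaf and 5 below it, shares of 54.5% and 45.5% beside 50.0% and 37.9% of all genes tested. FAMA (AT3G24140), which makes guard cells, held 8.92, 10.6 and 7.89 CPM in stamens and 71.1, 67.8 and 69.9 in leaf, and MYB60 (AT1G08810), found in them, 0.0589 to 0.232 CPM in stamens and 4.91 to 6.48 in leaf. TMM (AT1G80080), a receptor of stomatal patterning, lay on the other side, 4.75, 4.83 and 5.06 CPM in stamens and no count in leaf, as did GORK (AT5G37500), a potassium channel, 12, 12.5 and 14.4 CPM in stamens and 3.67, 2.21 and 2.78 in leaf. Of 5 leaf hair regulators tested, 2 were called above leaf, 2 below it and 1 neither way. GL2 (AT1G79840) held 2.84, 3.18 and 2.59 CPM in stamens and 5.89, 5.27 and 5.27 in leaf. GL3 (AT5G41315) was near 0 in both organs, and EGL3 (AT1G63650), its close relative, held 5.21, 6.01 and 4.13 CPM in stamens and no count in leaf.

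Genes often used to scale expression were not all level. Of 7 such genes, 2 were not called, 1 was higher and 4 lower. GAPC1 (AT3G04120), a glycolytic enzyme, held 1484, 1559 and 1527 CPM in stamens and 1506, 1456 and 1484 in leaf, and UBC21 (AT5G25760), of ubiquitin transfer, 16.3, 14.6 and 15.2 CPM in stamens and 12.6, 14.4 and 14.2 in leaf, both not called. With libraries scaled by their totals both were called higher (adjusted p = 1.03e-12 and 0.000286), and so they were with FPKM plus 1 or plus 0.1. GAPC1 was also called higher without stamen replicate 1 (adjusted p = 0.0265) and without gynoecium replicate 2 (0.0328) or 3 (0.0364). PP2AA3 (AT1G13320), a phosphatase subunit, was higher, 131, 130 and 140 CPM in stamens and 89.4, 93.3 and 89.1 in leaf, a log2 change of 0.56 ± 0.044 (SE; adjusted p = 4.5e-18). UBC9 (AT4G27960), also of ubiquitin transfer, was lower, 23.3, 22.1 and 21.1 CPM in stamens and 50.9, 57.2 and 56.4 in leaf, a log2 change of -1.30 ± 0.069 (SE; adjusted p = 6.01e-26), and YLS8 (AT5G08290), a splicing protein, too, 17.2, 11.1 and 12.9 CPM in stamens and 33.3, 39.7 and 36.8 in leaf, with stamen replicate 1 apart from the other two. These changes stand beside the median log2 change of all genes, 0.23.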

How the data were processed

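RNA sequencing libraries of stamens, gynoecium and leaf, 3 of each, were compared from the authors' deposited tables of counts and FPKM per locus. The submitters' processing notes name HTSeq 0.6.0, HISAT2 2.1.0, TopHat2, Bowtie2 2.2.3 and the build TAIR10, giving neither roles nor an order, and whether counting used strand is not given in the sources used here. Counts were whole numbers, not normalized by the authors. Dividing each count by its deposited FPKM and library total gave a whole-number length for all 24400 loci with a count (tolerance 1e-06), within 10% of the TAIR10.1 exon length for 99.8%. The other 8433 loci had no count in any library.

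Genes were filtered with filterByExpr, scaled by TMM and fitted with edgeR 4.0.16 (R 4.3.3; quasi-likelihood test, robust) on all 9 libraries with the organ as the only term, and the contrast of stamens with leaf was adjusted by Benjamini-Hochberg over 20827 genes. Sharing the spread with the gynoecium libraries adds residual degrees of freedom. The biological coefficient of variation was 3.62%. In simulated counts for this comparison (20001 genes) the test recovered 30 of 50 genes changed by 1.25-fold, 47 of 50 at 1.5-fold, 49 of 50 at 2-fold and 50 of 50 at 4-fold, and called 7 of 19801 unchanged genes. The changes were planted in few genes, in both directions, around a mean shared by all organs. In the data 87.9% of the genes tested were called, so the simulation does not check the scaling between organs. Alternatives were other scalings and filters, DESeq2 1.42.0, limma-voom (limma 3.58.1), log2 FPKM with a pseudocount of 1 or 0.1 in limma, a replicate block, the 6 libraries alone, a test against 2-fold, each library left out, and, chosen after seeing the data, fits without organelle genes and without overlapping genes. Library pairs of an organ differed by more than counting noise (chi-square per degree of freedom 1.83 to 3.1). Intervals and bounds cover counting error only.

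Gene symbols and sequences come from RefSeq TAIR10.1, matched by locus for 32548 of 32833 loci, 10804 of them with a symbol. The members and gene lists were chosen with earlier results of these data known, and list entries whose symbol and locus did not match the annotation, 30 of 709, were left out of the 38 lists. Genes to name were taken by rule: per list and direction up to 3 called members with the largest fitted change, and the highest uncalled one, the 10 largest changes each way, the 8 highest FPKM of each organ, members of 6 families and of runs of neighbours. Other list members were named for their known role with their values seen. Figures were drawn with matplotlib 3.10.9 and tables made with scipy 1.17.1, numpy 2.4.6 and pandas 2.3.3 under Python 3.11.15.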

Additional observations from a re-analysis of the deposited data

How the results depend on the processing

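The number of genes called, 18305, was within 1.5 times of this value under every alternative but one. Testing against 2-fold instead of no change left 10930 calls, 6505 higher in stamens and 4425 lower, since it asks for a larger difference by construction. Leaving out each library in turn gave 18185 to 18565 calls, 10380 to 10731 higher and 7738 to 7838 lower. At 2-fold or more it gave 12044 to 12198 calls, 7058 to 7275 higher and 4923 to 5002 lower. Of list members it gave 325 to 336 higher and 253 to 256 lower. Leaving out a stamen or leaf library leaves 2 in that organ, and these fits pool their spread with the other libraries. Calls in the opposite direction numbered 61 with library totals and 47 and 48 with FPKM plus 1 and plus 0.1, and 0 under the other alternatives. These scalings moved the median log2 change of all genes by 0.23, 0.20 and 0.23. The same 3 reversed TUB4 (0.12 in each), MCM3 (0.03) and AHA3 (0.16), the tubulin median (0.12) and the reference gene median (0.10). They also called AP2, RPK2, SGO1, GID1C, ARF8, GI, AOC4, GAPC1 and UBC21 higher in stamens, which the main fit did not call. The median of stomatal genes, 0.35, was -0.24 with the 6 libraries alone, -0.34 without leaf replicate 3, -0.20, -0.35 and -0.21 without stamen replicates 1, 2 and 3, and -0.23 without any of the gynoecium replicates, so that leaving out a library gave -0.35 to 0.37. The trichome median, -0.48, was 0.51 with the 6 libraries alone. These fits tested other members of both short lists by construction.

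Stamen and leaf libraries share replicate numbers, but same-numbered libraries did not deviate together, with correlations of -0.0521, -0.0445 and -0.0113, so the numbers were not taken as pairs. With a replicate block 18204 genes were called, 10365 higher and 7839 lower, and 18193 of the 18305 kept their call and direction. For values of 3 counts or fewer in an organ, depth sets only a bound or a wide interval.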

Other observations

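Gene families picked by words in their descriptions, and not yet described, leaned to one organ or to neither. Kinesins, the motors of microtubules, gave 17 higher in stamens, 5 lower and 6 not called of 28. ABC transporters gave 28 higher and 9 lower of 39, and genes described with ubiquitin 167 and 70 of 269. Expansins, which loosen cell walls, went the other way, 4 higher and 11 lower of 18, as did WRKY factors of stress and defence, 16 and 30 of 52, and genes described with thioredoxin, 22 and 55 of 84. Ribosomal proteins were even, 107 higher, 108 lower and 90 not called of 305, with a median log2 change of 0.02 at the bound. Over all genes tested 50.0% were higher and 37.9% lower, and the bound median was 0.21.

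Further genes with a symbol among the 10 largest fitted changes in each direction had no count in the other organ. In stamens these included PGA4 (AT1G02790), a polygalacturonase, with 1693, 1625 and 1648 CPM in stamens and no count in leaf, and VGDH2 (AT3G62170), a relative of VGD1, with 1914, 1958 and 1897 CPM in stamens and no count in leaf. In leaf they included BG3 (AT3G57240), a glucanase, with no count in stamens and 159, 167 and 168 CPM in leaf, and RLP38 (AT3G23120), a receptor-like protein, with no count in stamens and 139, 134 and 136 CPM in leaf. Markers of other organs had values on both sides: ANT (AT4G37750), which promotes organ growth, held 6.31, 5.66 and 6.97 CPM in stamens and 0.229, 0.427 and 0.142 in leaf, and NGA1 (AT2G46870), of style and leaf margins, 7.07, 7.54 and 6.6 CPM in stamens and 25.3, 24.2 and 23.6 in leaf. In the petal list PTL (AT5G03680), of sepal and petal borders, held 2.2, 3 and 2.28 CPM in stamens and 5.35, 6.19 and 6.27 in leaf. SHR (AT4G37650), a regulator of root patterning, held 4.98, 4.18 and 5.73 CPM in stamens and 17.6, 17.4 and 18.2 in leaf.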
